A study of Homo sapiens with 2 samples.

Results

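Chromatin accessibility at the starts of 103 ciliary and axonemal genes, among 20033 annotated protein-coding genes, was examined in undifferentiated human embryonic stem cells. The genes were taken by symbol: every protein-coding gene whose GENCODE name begins with IFT, BBS, CFAP, DNAH, DNAI, DRC, RSPH or LRRIQ followed by a digit. There were 15 IFT, 8 BBS, 48 CFAP, 13 DNAH, 5 DNAI, 3 DRC, 8 RSPH and 3 LRRIQ genes. The IFT and BBS genes (23) were set against the other families (80), which are called the primary and the motile families below. The split is by name: IFT genes also build motile cilia, and a few CFAP genes act outside the axoneme.

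The cells were H1, an established human embryonic stem cell line, and had been kept frozen. After thawing they were treated with DNase I, which digests DNA released by dead cells, and passed over Ficoll, and their nuclei were tagmented by the Omni-ATAC method, in which a transposase cuts and tags open DNA. The series holds 2 samples of 1 group, with no second genotype, treatment or time, and 1 deposited list of accessible regions shared by both. Nothing in the sources used here says that the 2 samples came from separate cultures, and the list gives no value per sample, so no replicate error could be attached to any value. The intervals given are 95% exact binomial intervals for shares and exact order-statistic intervals for medians. They cover the number of genes counted and not the spread between cultures.

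A cilium is a microtubule-based projection of the cell surface. Nearly every cell type, embryonic stem cells included, can raise a single primary cilium, an immotile sensor that is needed for Hedgehog signalling. Intraflagellar transport (IFT) trains carry its parts in and out, and the BBSome moves membrane proteins along them. Most motile cilia and sperm flagella add dynein arms, radial spokes, the nexin-dynein regulatory complex and a central pair of microtubules. These parts are made mainly by multiciliated and sperm cells. RFX factors, which bind a palindrome called the X box, act at genes of both kinds of cilium, and FOXJ1 acts with them at genes of motile cilia.

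The list held 236878 summits in 160327 regions of the GRCh38 genome, each with the authors' own fold enrichment over a background that is not described. A gene was counted as having a region where a summit lay within 1 kb of any of its annotated transcript starts, and its fold was that of the strongest such summit, or 0 without one. Markers told little about the label of the cells, since 81.1% of all protein-coding genes had a region: 8 of 8 pluripotency genes had a region (7 at the canonical start, without POU5F1) and 0 of 6 sperm markers did. Of 10 regulators and markers of multiciliated cells, 9 had one, with SNTN the exception, and the median folds of the pluripotency and multiciliated lists were 7.35 and 7.33. Across a culture, few cells with open chromatin and weak opening in every cell give the same value and cannot be told apart.

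Starts of ciliary genes were open almost throughout, and those of the motile families nearly as often as those of the primary families. Of the 103 genes, 97 had a region (94.2%, interval 87.8% to 97.8%), against 81.1% of all protein-coding genes. All 23 primary genes had one (100%, 85.2% to 100%), and so did 74 of the 80 motile genes (92.5%, 84.4% to 97.2%), so the intervals of the 2 groups overlapped. At the Ensembl canonical start alone the counts were 95 of 103 genes, 23 of 23 primary and 72 of 80 motile, against 76.8% of all genes. The 157 distinct regions at these starts had a median fold of 10.2, against 5.38 over the whole list, which includes regions away from starts. The median over regions at the starts of all genes was not computed. By strongest summit per gene, open ciliary genes had a median of 12.9, against 9.71 for all open protein-coding genes.

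The openings were also strong. With genes without a region set to 0, the median fold was 12.6 over the 103 genes (11.7 to 13.3), 12.9 over the primary families (11.5 to 16.1) and 12.3 over the motile families (10.6 to 13.4). The median of all protein-coding genes was 8.48, with quartiles of 4.33 and 11.9, so the median ciliary gene lay above the upper quartile. Fold reached the highest 10% of all genes with a region, at 15.4 or more, in 28 of the 97 open ciliary genes (28.9%, background 10%). These 28 were 9 primary and 19 motile genes. Values spread widely within families, and open CFAP genes alone ran from 3.33 to 21.0, as the plot of fold by family shows.

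**Figure D1:**
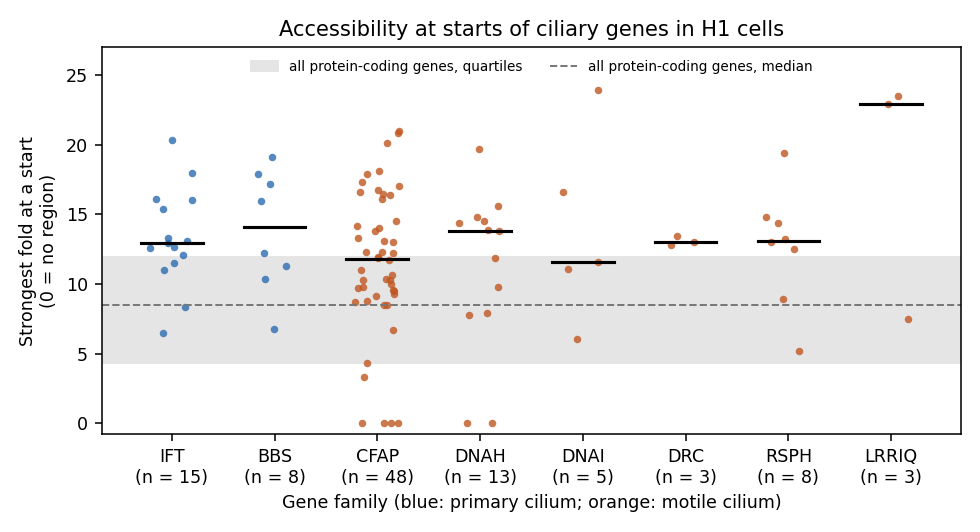
Fold of the strongest summit within 1 kb of a start (vertical axis, the authors' fold over background, 0 without a region) for each of the 103 genes by family, with each family's median as a black line, and the quartiles and median of all protein-coding genes as the grey band and dashed line. Family medians run from 11.5 (DNAI) to 22.9 (LRRIQ), all above the 8.48 of all genes, and the 6 points at 0 are CFAP and DNAH genes.

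Of the motifs searched, the X box stood farthest above its share in all promoters. It was searched on either strand from 250 bases before to 50 after the canonical start, in a strict form (GTTNCC, 0 to 3 bases, GGNAAC) and in a relaxed form that contains it (GTNNCC, 0 to 3 bases, NGNAAC). The relaxed form was found in 40 of 103 promoters (38.8%, 29.4% to 48.9%), against 5.46% of all 20033 protein-coding promoters and 5.85% of promoters of the same CpG deciles. The strict form was found in 7 (6.80%, 2.78% to 13.5%), against 0.814%. The following 30-base stretches show strict boxes lying at accessible starts, in capitals, from the GRCh38 sequence and read 5′ to 3′ on the gene's strand.
CFAP20DC: gtcccgcgGTTGCCtgGGCAACgctacgtc
CFAP45: ggctagtgGTTGCCaaGGTAACgcgtcaac
IFT122: catgtacGTTGCCaggGGTAACgcaggtag
CFAP276: ggctgggcaGTTGCCtGGCAACcgaaacca
CFAP73: tgtggtcgGTTGCCaGGCAACcagagcctg
CFAP90: caggcggcgGTTTCCaGGCAACgaccgaac
They lie at chr3:59050148-59050177 (minus strand), chr1:159900163-159900192 (minus), chr3:129440205-129440234 (plus), chr1:109112778-109112807 (minus), chr12:113149702-113149731 (plus) and chr5:7851136-7851165 (minus). CFAP45, a protein inside the axonemal microtubules, had a fold of 16.4 at this start, and IFT122, of the retrograde transport complex, had 13.1.

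Some of the strongest openings held a relaxed box and some did not: DNAI3, CFAP161, CFAP43, RSPH4A and BBS12, with folds from 19.1 to 23.9, had none. The next stretches hold one each, in capitals, and were printed because their genes are among the strongest of their families.
IFT57: tgtccggtgGTCGCCtGGTAACcggtcgtg
DNAH6: gttgaggcGTTGCCtGGCGACgtgttactc
DNAH12: ccgccacaGTTTCCatGGCGACgacgttgt
LRRIQ1: gattggctGTTGCCatGGATACgctttgtg
LRRIQ3: ctccgtgcGTCGCCcaCGTAACcacgcccc
They lie at chr3:108222407-108222436 (minus strand), chr2:84516414-84516443 (plus), chr3:57544364-57544393 (minus), chr12:85036324-85036353 (plus) and chr1:74198166-74198195 (minus). The folds at these starts ran from 14.8 at DNAH12 to 23.5 at LRRIQ1. A match is a run of letters in the reference sequence and does not show that a factor was bound in these cells.

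The relaxed form was present in 36 of 80 motile promoters (45.0%, 33.8% to 56.5%) and in 4 of 23 primary ones (17.4%, 4.95% to 38.8%), those of IFT57, IFT122, IFT22 and IFT74. The 2 intervals overlapped and no test was made of the difference. Among cilium genes with other names it was in 7 of 17 transport and motor genes (41.2%), 3 of 9 BBSome partners (33.3%) and 8 of 18 transition-zone genes (44.4%), which serve primary cilia, and in 19 of 41 genes of the motile axoneme (46.3%). By family it was in 22 of 48 CFAP, 6 of 13 DNAH, 2 of 5 DNAI, 4 of 8 RSPH, 2 of 3 LRRIQ, 0 of 3 DRC and 0 of 8 BBS promoters. CFAP144, a protein of the inner microtubule wall, held 3 boxes, 24 bp apart from one to the next, the first of which reads
CFAP144: cgagcgctGTTGCCtGGAGACcacgggacg
at chr1:43147841-43147870 on the plus strand, beside a fold of 13.3. A single arm of the site, GTTGCCA, was in 32 of the 103 promoters (31.1%) against 4.14% of all. It overlaps the strict and relaxed patterns, so these counts share matches.

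Boxes lay close to the start. Measured by the box nearest to the canonical start, the box centre was within 50 bp of it in 29 of the 40 ciliary promoters with a relaxed box (72.5%), against 41.7% of the 1094 such promoters over all genes. The median centre was 19 bp upstream of the start, against 68 bp over all genes. Of the 39 ciliary genes with both a box and a region, 34 had a box within 100 bp of a summit, and the median distance over all 39 was 36 bp. This was not counted over all genes, and both boxes and summits were sought near starts. Within 100 bp of the strongest summit, 31 of 97 ciliary genes held a relaxed box (32.0%), against 5.02% of all genes with a region.

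**Figure D2:**
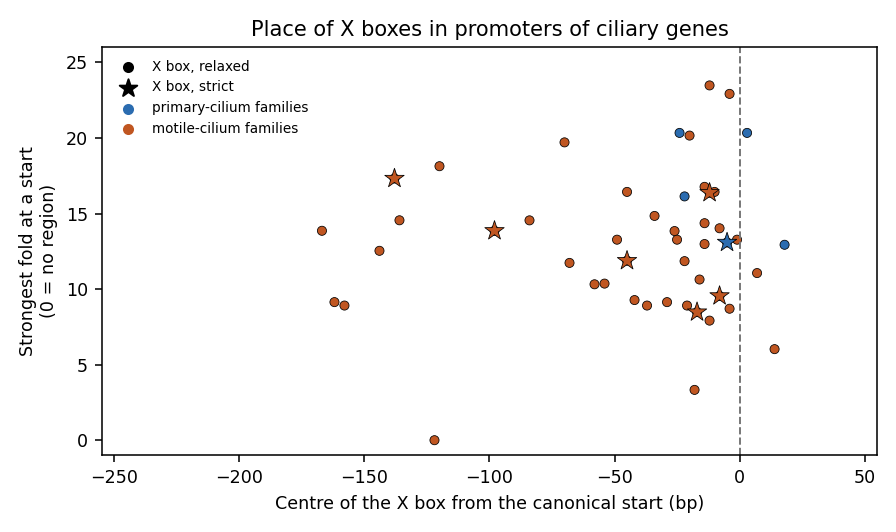
Position of each X box centre relative to the canonical start (horizontal axis, bp, upstream negative) against the fold at the gene's starts (vertical axis, 0 without a region) in the ciliary promoters; circles are relaxed boxes, stars strict ones, blue the primary and orange the motile families. Most points fall within 50 bp upstream of the start at folds between 6 and 24, and the point at 0 is CFAP141.

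Having a box went with only a small difference in fold among the ciliary genes themselves. Those with a relaxed box were open in 39 of 40, and their median fold was 13.0 (11.1 to 14.6), and those without in 58 of 63, at 12.3 (11.0 to 13.2), so the intervals overlapped. Over all protein-coding genes the 163 with a strict box were open in 90.2% (84.5% to 94.3%) with a median fold of 11.5, against 81.1% and 8.46 of those without. Their CpG deciles alone would give 84.6%. With the relaxed form the difference was smaller: 85.0% of 1094 genes were open, where CpG would give 83.8%, and the median fold was 10.2 against 8.40. Only 7 of those 163 genes are among the 103.

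Most other motifs stood near their background, with TGACGTCA in the primary families as an exception. CCGGAAG, the ETS site, was in 19.4% of ciliary promoters against 14.1% of all, and GGGCGG, the GC box, was in 63.1% against 61.3%. CCAATNAG, the NFY site, stood at 8.74% against 8.59%, and GCGCATGC, the NRF1 site, at 3.88% against 4.27%. TGTTTAC, the forkhead core that FOXJ1 shares with other factors, stood at 2.91% against 2.42%, and ATGCAAAT, the octamer of POU factors, at 1.94% against 1.62%. CACGTG, the E box, stood at 5.83% against 8.76%, AAGATGGC, the YY1 site, at 2.91% against 4.04%, AACNGTT, the MYB site, at 3.88% against 2.69%, and TTTGGCGC, the E2F site, at 0.971% against 0.864%. TATAAA was in 4 of 103 promoters (3.88%, 1.07% to 9.65%) against 9.71% of all. In promoters of the same CpG deciles its share was 7.93%, which lies within the interval. TGACGTCA, the cAMP response element, was in 5.83% of all 103 (2.17% to 12.2%) against 2.69%, which also lies within the interval. It was in 5 of 23 primary promoters (21.7%, 7.46% to 43.7%), those of IFT57, IFT20, IFT27, IFT43 and BBS7, and in 1 of 80 motile ones, DNAI3. All were searched on both strands of the promoter window.

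**Figure D3:**
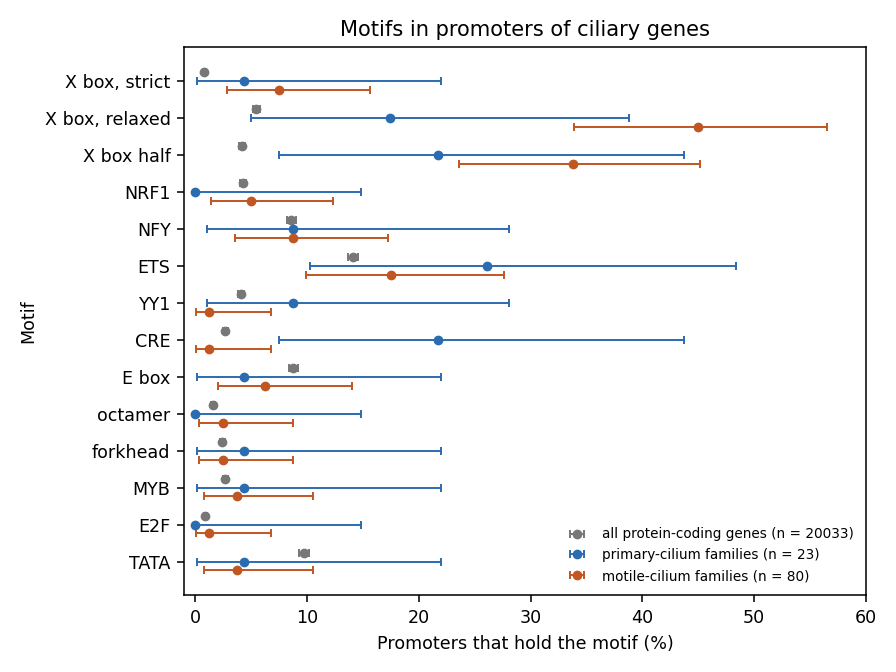
Percent of promoters (horizontal axis, 250 bases before to 50 after the canonical start) that hold each motif (vertical axis) on either strand, for all protein-coding genes, primary and motile families, with 95% exact binomial intervals. The relaxed X box stands at 45.0% in motile and 17.4% in primary promoters against 5.46% of all, while most other motifs lie near the grey points.

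The IFT genes, which encode the transport trains, were open at 15 of 15 canonical starts, against 76.8% of all genes, with a median fold of 12.9. From genes of the same CpG deciles and classes of start number, 98.7% would have a region at any start. The count of open IFT genes thus stood near that share. The 12 IFT-named subunits of complex B, which runs outward with kinesin, lay between 11.0 and 20.3, with a median of 13.1. Subunits of complex B with other names lay in the same range: TTC26 had 16.5, TTC30B 13.8, TTC30A 13.3, CLUAP1 12.9 and TRAF3IP1 11.2. Of complex A, which returns with dynein, the 3 IFT-named subunits were IFT122 at 13.1, IFT140 at 8.32 and IFT43 at 6.46, the last 2 the lowest of the family. Its other subunits were higher, with WDR19 at 18.8, WDR35 at 14.8 and TTC21B at 14.2, so the complex as a whole did not stand low. IFT57 had the highest, 20.3, in a region of 952 bp on chromosome 3 (108221908 to 108222859) whose strongest of 2 summits lay 58 bp upstream of the nearest start. IFT52, of the complex B core, had 18.0 in a region on chromosome 20 (43590130 to 43591321) with 3 summits, the strongest 6 bp into the first exon. IFT74 and IFT172 followed at 16.1 each, and IFT80 at 15.4. IFT88, whose loss removes the primary cilium in mice, had 11.0.

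Several IFT genes open from a start shared with a neighbour. The strongest region was also within 1 kb of a start of SMC4 for IFT80, of MBD4 for IFT122, of TNFAIP1 for IFT20, of ARCN1 for IFT46, of LRRC42 for IFT25 and of CRAMP1 for IFT140. For these 6 genes the value of the shared region cannot be assigned to 1 of the 2 genes. IFT46 also had a fold of 11.9 at its canonical start, beside 12.1 at the shared summit, which lay at −6405 bp from that start.

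The BBS genes were open at 8 of 8 canonical starts, against 76.8% of all genes, with a median fold of 14.1. CpG deciles and classes of start number would give 87.5% at any start, within the interval of the 8 genes (63.1% to 100%). BBS12 and BBS10, chaperonin-like proteins that help assemble the BBSome, had 19.1 and 16.0, while MKKS, of the same kind, had 8.57. BBS12 lies in a region of 1123 bp on chromosome 4 (122732285 to 122733407), with a single summit 105 bp upstream of the nearest start. The 6 BBSome subunits named BBS ran from 6.79 at BBS5 to 17.9 at BBS7, with BBS9 at 17.2, BBS4 at 12.2, BBS1 at 11.3 and BBS2 at 10.3. The subunits TTC8 and BBIP1 had 15.9 and 13.2. The BBS7 region, also on chromosome 4 (121869800 to 121870777), had 3 summits, the strongest 51 bp upstream of a start. No BBS promoter held an X box of either form.

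The dynein heavy chains, the motors of the axoneme, had the lowest share of the families, though it lay close to that of all genes. A region was present at some start in 11 of 13 (84.6%, 54.6% to 98.1%), against 81.1% of all genes. CpG deciles and classes of start number would give 86.8%. At the canonical start it was 9 of 13 (69.2%, 38.6% to 90.9%), against 76.8% of all genes. Where open, the heavy chains were strong, with a median of 13.9. DNAH6, an inner-arm chain, led with 19.7 in a region of 988 bp on chromosome 2 (84515846 to 84516833), 35 bp upstream of a start. The other inner-arm chains had 14.8 (DNAH12), 14.4 (DNAH7), 13.9 (DNAH1), 9.77 (DNAH3), 7.91 (DNAH2) and 7.80 (DNAH10). DNAH12 opened in a region of 671 bp on chromosome 3 (57543898 to 57544568), with its single summit in the first exon. DNAH14 had 13.8.

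Among the outer-arm chains the respiratory and the sperm forms separated. DNAH5, DNAH9 and DNAH11, which power airway cilia, had 15.6, 14.6 and 11.9, and DNAH8 and DNAH17, their counterparts in the sperm tail, had no region within 1 kb of any start. The nearest summit to a start was 2338 bp away at DNAH8 and 1669 bp away at DNAH17. This is a description of 5 genes, and no test was made of the difference.

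At 3 heavy chains the opening was at a start other than the canonical one. DNAH5 had its strongest region on chromosome 5 (14011060 to 14012041), at −67133 bp from the canonical start (upstream negative) and −3 bp from another annotated one, and only 6.62 at the canonical start. DNAH1 had none at the canonical start and 13.9 at an internal start, with the summit 1503 bp downstream of the canonical one. DNAH3 had none at the canonical start and 9.77 with the summit at −7766 bp, in a region shared with LDAF1. DNAH1 also holds a strict X box 98 bp upstream of its canonical start, 1180 bp from the nearest summit at any of its starts, in the stretch
DNAH1: aggctgatGTTGCCatGGCAACccggatag
at chr3:52316206-52316235 on the plus strand. A strict box was thus present at a start with no summit within 1 kb. The nearest summit, downstream of the canonical start, lay only just past this limit.

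The intermediate chains were open at 5 of 5 starts, against 81.1% of all genes and 92.3% from CpG deciles and classes of start number. DNAI3 had the highest fold of all 103 genes, 23.9, in a region of 930 bp on chromosome 1 (85061709 to 85062638) with 2 summits, the stronger 59 bp upstream of the nearest start and within an intron of a longer transcript. DNAI7 had 16.6 on chromosome 12 (25194780 to 25195668), in a region shared with ETFRF1. The outer-arm chains DNAI1 and DNAI2, mutated in primary ciliary dyskinesia, had 11.1 and 6.03, and DNAI4 had 11.5. The regions of DNAI1 and DNAI4 were shared with FAM219A and MIER1.

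The nexin-dynein regulatory complex, the link between neighbouring doublets, is represented here by DRC3 at 13.4, DRC1 at 13.0 and DRC7 at 12.8. Of its subunits with other names, CCDC65 had 13.2 and IQCG had 12.4, while GAS8 had 4.66 and no region at its canonical start. The DRC3 region on chromosome 17 (17972129 to 17973176) was shared with TOM1L2, with the summit at −221 bp from the nearest start. The DRC1 region lies on chromosome 2 (26401635 to 26402507), with the stronger of its 2 summits 14 bp upstream of a start. DRC7 was open in spite of a CpG-poor start, with a ratio of observed to expected CpG of 0.209.

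The radial spoke genes were open at 8 of 8 starts (interval 63.1% to 100%), with a median of 13.1. Of all genes 81.1% were open, and CpG deciles and classes of start number would give 85.7%. The spoke-head genes RSPH4A, RSPH1 and RSPH9, mutated in primary ciliary dyskinesia, had 19.4, 14.8 and 12.5. RSPH4A has a region of 1307 bp on chromosome 6 (116615867 to 116617173), and RSPH1 one of 1243 bp on chromosome 21 (42495850 to 42497092) that it shares with SLC37A1. RSPH6A, the sperm form of the spoke-head protein, was lowest at 5.19, with its strongest summit at −642 bp from the nearest start. RSPH10B and RSPH10B2 had 14.4 and 13.0, but their regions align over 704 bp at 99.7% identity, so reads could have been split between the copies and both values are uncertain.

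The CFAP genes were open in 44 of 48 cases (91.7%, 80.0% to 97.7%), against 81.1% of all genes. CpG deciles and classes of start number would give 86.0%, within that interval. The median fold was 11.8 over all 48, with values from 3.33 to 21.0 where open. CFAP161, a microtubule inner protein, had the highest, 21.0, on chromosome 15 (81133915 to 81134769). CFAP43, needed for sperm tail structure, had 20.9 on chromosome 10 (104231755 to 104232878) in a region with 4 summits. CFAP126, which positions basal bodies in multiciliated cells, had 20.2 on chromosome 1 (161367689 to 161368064). That region was only 376 bp wide, against a median of 978 bp at ciliary starts, and its start has a CpG ratio of 0.190.

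Sorted by structure, each compartment of the axoneme had open genes. The 8 central-apparatus genes were all open, from 3.33 at CFAP46 to 18.1 at CFAP47. CFAP54, CFAP221 and CFAP70 of this group had 16.8, 12.3 and 11.9. The 4 genes of the spoke-associated complexes lay between 13.1 (CFAP206) and 17.0 (CFAP91), with CFAP61 at 14.0 and CFAP251 at 13.8. Of 16 microtubule inner proteins, 13 were open, a share close to the 81.1% of all genes, with a median over all 16 of 12.3. They ran from 4.33 at CFAP77 to 21.0 at CFAP161, and the other 3 had no region. CFAP43 and CFAP44, which tether the inner dynein f, had 20.9 and 16.1. The groups were named from general knowledge with the values known.

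LRRIQ1 and LRRIQ3, leucine-rich repeat proteins with a calmodulin-binding motif, had 23.5 and 22.9, the highest of the 103 genes after DNAI3, and LRRIQ4 had 7.47. All 3 share their start with a neighbour read the other way: LRRIQ1 on chromosome 12 (85036152 to 85037042) with TSPAN19, LRRIQ3 on chromosome 1 (74197715 to 74198558) with FPGT, and LRRIQ4 with LRRC34. The 2 strongest of these starts are those whose X boxes are printed above.

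Starts shared with a neighbour were common across the families. The strongest region also served another protein-coding gene's start in 32 of 97 ciliary genes (33.0%), against 22.9% of all open genes. A neighbour lay on the opposite strand in 27 (27.8% against 17.9%). Whether such genes point away from each other or overlap was not checked. The strongest region of CFAP298 (10.3) is also that of the read-through gene CFAP298-TCP10L, so this region enters once for each name. When summits shared with another protein-coding gene were not counted, 77 of the 103 genes had a region, and the motile share was 71.2%, against 66.8% of all genes. The motile median fold was then 9.39, against 6.30.

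Within the 1 kb allowed, most of the strongest summits lay close to a start. The strongest summit was within 100 bp of the nearest annotated start in 74 of 97 ciliary genes (76.3%), against 60.3% of all open genes, and was upstream of it in 71 (73.2% against 74.8%). The median offset was 31 bp upstream, against 46 bp. Regions were slightly narrower than at all open genes (978 against 1074 bp), and 84 of 97 had more than 1 summit (86.6% against 80.6%). Ciliary genes also have more annotated starts (a median of 7 against 5), which gives them more chances to count as open. More starts also give more chances for a summit to lie close to one. The shares of summits within 100 bp and of starts shared with a neighbour were not adjusted for start number. From the share in genes of the same CpG decile and the same class of start number, 88.5% of the ciliary genes would be open, which lies within the interval of the 94.2% measured. The same expectation was 94.8% for the primary and 86.6% for the motile families, also within their intervals.

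CpG content, which goes with accessibility over all genes, had a similar median in these promoters, but a smaller share of them was CpG-poor. In the 3 lowest CpG deciles lay 21 of the 103 ciliary genes, against 6010 of all 20033. The median ratio of observed to expected CpG within 500 bp of the canonical start was 0.693 for the ciliary genes, 0.736 for the primary and 0.675 for the motile families, against 0.725 for all genes. The CpG decile alone would give 86.1% open for the 103 genes, against 94.2% measured and 81.1% of all genes. For the primary and the motile families it would give 92.4% and 84.3%, against 100% and 92.5% measured. Fold was above the median of the gene's own CpG decile in 77 of 103 ciliary genes (74.8%), against 47.4% of all genes: 19 of 23 primary (82.6%) and 58 of 80 motile (72.5%).

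At CpG-poor starts fewer genes were open in general, which leaves room for a difference, whereas the other classes were nearly all open. In the 3 lowest deciles 44.6% of all genes had a region, against 16 of 21 ciliary genes (76.2%, 52.8% to 91.8%). The motile families had 13 of 18 there (72.2%, 46.5% to 90.3%) and the primary families 3 of 3. CpG was taken at the canonical start, and some of these regions lie at other starts, as at DNAH1 and DNAH3. Counted at the canonical start alone, 14 of 21 ciliary genes had a region (66.7%, 43.0% to 85.4%), against 32.1% of all genes in these deciles. In deciles 4 to 7, 95.4% of all genes were open, with 51 of 52 motile and 13 of 13 primary genes. In deciles 8 to 10, 98.7% of all genes were open, as were all 10 motile and 7 primary genes. The open genes with the lowest CpG ratios included CFAP126, CFAP157 (fold 6.70), CFAP73 (9.55) and DRC7.

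**Figure D4:**
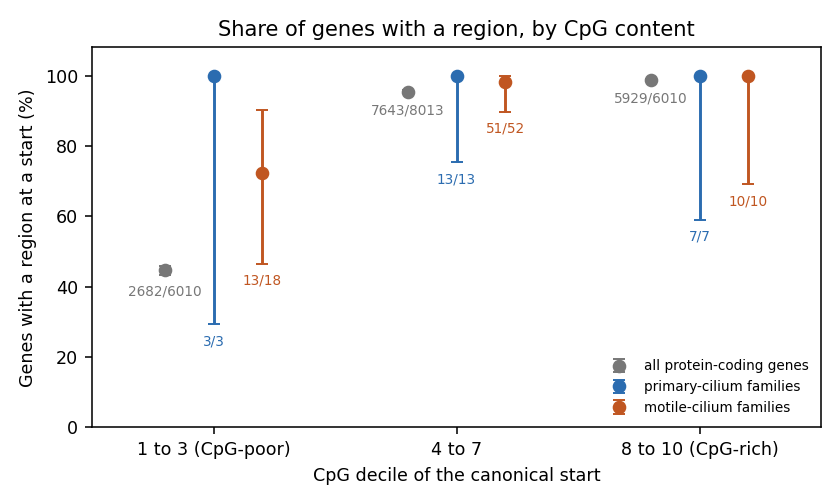
Percent of genes with a region at a start (vertical axis) by CpG decile of the canonical start (horizontal axis), for all protein-coding genes, primary and motile families, with 95% exact binomial intervals and the counts beside each point. In the CpG-poor class 44.6% of all genes and 13 of 18 motile genes had a region, while in the other 2 classes all 3 sets stood above 95%.

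The 6 genes without a region were CFAP107, CFAP141, CFAP97D1, CFAP97D2, DNAH17 and DNAH8. Of these, 5 have starts in the 3 lowest CpG deciles and DNAH8 lies in the decile after them. CFAP97D1 and CFAP97D2 had their nearest summits 1099 and 1164 bp from a start, just outside the 1 kb limit, while CFAP141 and CFAP107 had none nearer than 7135 and 14167 bp. On the other side, the open gene whose nearest summit was farthest away was RSPH6A, at 219 bp. The 100 bases before the canonical starts of the first 3 show how little CpG they hold: 0 in CFAP107, 0 in CFAP141 and 1 in CFAP97D1.
CFAP107: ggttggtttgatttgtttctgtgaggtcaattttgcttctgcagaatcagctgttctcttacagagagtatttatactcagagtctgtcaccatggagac
CFAP141: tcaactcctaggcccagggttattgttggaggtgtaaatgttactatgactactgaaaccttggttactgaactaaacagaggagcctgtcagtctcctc
CFAP97D1: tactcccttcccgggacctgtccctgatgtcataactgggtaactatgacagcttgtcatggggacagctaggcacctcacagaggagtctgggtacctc
They lie at chr1:12746100-12746199 (plus strand), chr1:154206334-154206433 (minus) and chr17:43780335-43780434 (plus). CFAP107, CFAP141 and CFAP97D1 encode microtubule inner proteins. CFAP141 also holds a relaxed X box centred at −122 bp from its start, at chr1:154206441-154206470 on the minus strand, and is the only promoter with a box among the 6.
CFAP141 box: ctctcaagGTTTCTggGGCAACaggccagg

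Away from starts the long ciliary genes held fewer regions than long genes in general by the median, with overlapping quartiles. Among genes of at least 100 kb, the number of regions inside the gene with no summit within 1 kb of any gene's start had a median of 4.69 per 100 kb over 3667 protein-coding genes, with quartiles of 2.91 and 6.73. It was 2.69 over 37 ciliary genes, with quartiles of 1.72 and 5.10, and 2.56 over 7 primary and 2.70 over 30 motile genes. The 12 heavy chains of this length had a median of 2.21, from 1.19 at DNAH14 to 6.41 at DNAH11. DNAH5, DNAH7 and DNAH8 stood near DNAH11 at 5.91, 5.74 and 5.39, and DNAH2, DNAH3, DNAH10, DNAH12 and DNAH17 lay below 2. DNAH8, without a region at its starts, thus had 17 within its body. BBS9 had 38 and CFAP299 had 32, the highest counts, in genes of 767624 and 628021 bp.

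**Figure D5:**
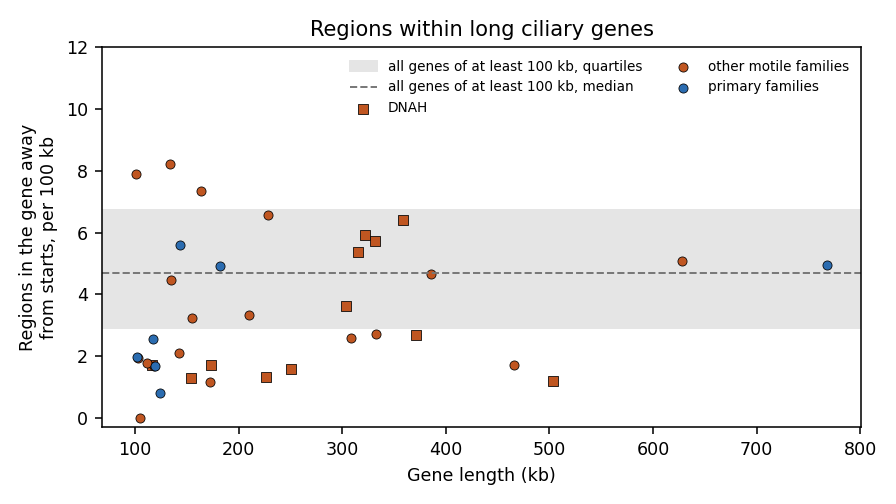
Regions inside the gene and away from any start, per 100 kb (vertical axis), against gene length in kb (horizontal axis) for the 37 ciliary genes of at least 100 kb; squares are DNAH genes, orange circles other motile and blue circles primary families, with the quartiles and median of 3667 protein-coding genes as the band and dashed line. The ciliary median of 2.69 lies below the lower quartile of 2.91, and 4 DNAH genes stand above the general median.

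Cilium genes with other names had similar values. Of 98 such genes, listed by role with earlier results known, 96 had a region, with a median fold of 12.5. Of all protein-coding genes 81.1% had a region, with a median of 8.48. The shares that CpG content and start number would give for these lists were not computed. The transport genes named otherwise and the train motors had a region in 17 of 17 and a median of 13.8, led by DYNC2H1, the retrograde motor, at 20.4, with KIFAP3 and DYNC2LI1 at 19.1 each. BBSome partners were open in 9 of 9 (median 12.5), with TTC8 at 15.9, CEP290 at 15.2 and TRIM32 at 14.1. Transition-zone genes, which guard the base of the cilium, were open in 18 of 18 (median 12.1), with TCTN3 at 19.8, IQCB1 at 18.8 and TCTN1 at 17.9. Genes of the motile axoneme and of dynein assembly were open in 39 of 41 (median 12.9), with TEKT3 at 21.0, SPAG17 at 20.1 and HYDIN at 19.9, while NME8 and TEKT4 had no region. HYDIN has a near-identical partial copy, so its value is uncertain.

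Genes listed as regulators, with CCNO and RFX5 among them, had a lower median. All 13 listed were open, against 81.1% of all genes, at a median of 8.17, beside the 8.48 of all genes. GMNC, at the top of the multiciliated programme, had 14.7, RFX2 had 13.7 and RFX3 had 10.6, while FOXJ1 had 7.69, MCIDAS 6.97 and TP73 3.02. No test was made between the lists. The relaxed X box was in 37 of the 85 other cilium genes without the regulators (43.5%), and 13 of these promoters held the strict form.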

How the data were processed

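ATAC-seq of 2 H1 samples in 1 group was used through the 1 deposited peak list. Per the submitters' processing notes the build was GRCh38. Not given in the sources used here are the aligner, the peak caller, its background, the read shift and the pooling of samples. The deposited fold (a linear ratio over background), −log10 p and the deposited score (not used for any result) are the authors' values per summit, in the narrowPeak layout. The list holds no values per library. Library depth was not analysed here. The precision of each share rests on the number of genes.

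Rows with the same coordinates were joined into 1 region. Starts were those of GENCODE release 44, and sequences were read from GRCh38 with samtools 1.23.1 and pysam 0.24.0. RefSeq's promoter table (GRCh38.p14) matched 90 of the 103 genes and gave a strict X box in 6 of its 107 entries for them. Regions were compared with each other and with mitochondrial DNA by blastn 2.17.0, and 0 of 97 matched the latter at an E value of 1e-05. CpG deciles were taken over all protein-coding genes within 500 bp of the canonical start. Python 3.11.15, numpy 2.4.6, pandas 2.3.3 and scipy 1.17.1 were used, and the procedures were tested on simulated data. No test over samples was possible with 1 group, and no p-value was computed.

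The genes, the lists, the motifs and the genes described were chosen with earlier results of these data known. Described in full were the 2 genes of highest fold in each family (3 in CFAP and DNAH), by name those without a region, and by sequence those with a strict X box near a summit, to which some relaxed boxes were added. One further stretch is not reported here. Genes outside the families are the 3 highest and those without a region in each list. FOXJ1, MCIDAS, TP73 and the further subunits of the IFT, BBSome and nexin-dynein complexes were added for their role after their values were seen. HSPB11 is the older symbol of IFT25 and was left out of the other list.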

Additional observations from a re-analysis of the deposited data

How the results depend on the processing

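The 7 results were recomputed under 15 alternative settings, not all of which apply to each, giving 59 values, of which 56 kept a share or median within its interval or a count within 1.5 times its value. Over other windows (500 bp and 2 kb), sets of starts, summit choices, overlap in place of distance and a higher −log10 p, the number of ciliary genes with a region stayed between 91 and 100. Over the same settings the share of all genes ran from 73.3% (outermost 5′ end) to 83.6% (2 kb). Without summits shared with another protein-coding gene the number of ciliary genes was 77. The motile share then fell to 71.25% (all genes 66.8%) and the motile median fold to 9.39 (all genes 6.30). The share of promoters with an X box moved from 6.80% for the strict form to 38.83% for the relaxed consensus, as the second contains the first. With a −log10 p above the list's median, the heavy chains had 1.69 regions per 100 kb away from starts, against 2.45 over all long genes. Leaving out RSPH10B2 and CFAP298-TCP10L, a choice made after seeing the data, left 95 genes with a region. No replicate could be left out, and no paired analysis was possible because the list holds no value per sample. The depth of the libraries is unknown here, so a start without a region may be one that was not detectable.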
